A study of Homo sapiens with 20 samples.

Results

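The loci described here are the places where chromatin loops differed most between H4 cells, a human glioblastoma line that carries an endogenous truncating mutation of STAG2, and H4 88-1 cells, the derivative in which that mutation was corrected by gene editing. A loop is a pair of anchors, each a window of about 5 kb, with a loop strength in each cell line. The 100000 strongest pairs of each line were merged into 129476 anchor pairs, of the 572000 distinct pairs in the 4 deposited loop lists of the study. Pairs were ranked by the log2 ratio of the strength in H4 88-1 to that in H4, and the 1000 most raised and the 1000 most lowered pairs were taken as the extremes. Extreme pairs whose anchors both lay within 10 kb of each other were joined, which gave 316 raised and 283 lowered loci.

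Loop strength was measured by Hi-C, in which pieces of chromatin that lie close together in the nucleus are ligated and sequenced. Each line was profiled in 2 biological replicates, which the authors pooled into 1 list of the 300000 strongest pairs. There is thus 1 value per line and pair, no spread between replicates and no read count, and the differences below describe these lists without a test. H4 88-1 is 1 edited line, so that differences due to STAG2 and any other difference between the 2 lines cannot be told apart, and the origin of the cells cannot be checked from loops. Pairs that a list did not hold were set to its lowest strength, 4.14 in H4 and 4.44 in H4 88-1, and their folds are therefore lower bounds. The word absence below stands for such a value.

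STAG2 is a subunit of cohesin, the ring-shaped complex that draws chromatin into loops by extrusion and also holds sister chromatids together. Extrusion tends to stop at DNA bound by CTCF, most often where CTCF sites at the ends of a loop face each other. Cohesin that carries STAG2 and cohesin that carries its paralog STAG1 differ in how long they stay on chromatin, and STAG2 is recurrently inactivated in glioblastoma and other cancers.

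Sequences that match the CTCF core consensus, searched on both strands of GRCh37, are printed for 5 of the 10 named loci that held one, chosen as examples after the values were seen, because such sites are known to stop extrusion. Among them are the most raised and the most lowered locus. The letters are given 5′ to 3′ on the strand of the match, and capitals mark the 12 matched bases between 8 flanking bases on each side.
Lowered locus beside GALNT17, first end: aactctggCCACCAGGGGGCgctctgca
Lowered locus beside GALNT17, second end: ccttttgcCCACTAGATGGCactgctgc
Raised locus at WNT7A, second end: ttctgtatCCAGCAGGGGGCgacaaagc
Raised locus beside CCND1, second end: ctgtgctaCCACTAGGTGGCagtcaaag
Raised locus at PLXNA1, first end: agcggagcCCACTAGGTGGCaggcctgg
Raised locus at ITGA3, first end: cgcagtcgCCACCAGGTGGCaagcatgc
They lie, in this order, at chr7:70322085-70322112 on the plus strand, chr7:71201116-71201143 on the minus strand, chr3:13927087-13927114 on the minus strand, chr11:69485167-69485194 on the minus strand, chr3:126471235-126471262 on the plus strand and chr17:48104355-48104382 on the plus strand.

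Of the 25 named loci, 10 held such a match in the most extreme pair and 1, the locus beside GALNT17, held one at both ends. The matches numbered 11, of which 10 pointed toward the partner anchor and 1, at SEMA3D, pointed away. The direction of single matches was not computed over all merged pairs, so these counts have no background. A match at either end was found in 19% of raised, 21.6% of lowered and 15.6% of all merged pairs. Over all extremes, 9.52% of the 1134 anchors of raised pairs and 9.19% of the 1056 anchors of lowered pairs held a match, beside 5.98% of the 46368 anchors of all merged pairs. Both ends were matched in 12 raised and 7 lowered pairs, of which 8 and 7 were convergent and 0 in either direction divergent. Among all merged pairs, both ends were matched in 797, of which 67.6% were convergent and 3.39% divergent. The median GC content of the anchors was 45.2% in raised, 38.8% in lowered and 42.2% in all merged pairs. A match is a description of the letters in a window and not a binding site, and the part of base composition in these shares was not tested.

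More pairs were stronger in H4 88-1 than in H4. At a fold of 1.5, 11311 merged pairs (8.74%) were stronger in H4 88-1 and 2792 (2.16%) were stronger in H4, so that 80.2% of the pairs past this fold were higher after correction. This balance depended on how the lists were scaled, and with the quantiles of both lists made equal 5633 pairs were higher and 5705 lower. The median log2 ratio of all merged pairs was 0.07, 58.1% were positive, and the central 90% lay between -0.48 and 0.66. Pairs absent from the H4 list had to reach the merge through H4 88-1, where the lowest merged strength was 1.5 times the lowest H4 strength, so that 4651 of the 4739 such pairs passed 1.5-fold by this rule. In the other direction the corresponding ratio was 1.31, and 1012 of the 4541 pairs absent from H4 88-1 passed. Among pairs listed in both lines 6660 were higher and 1780 lower. A 2-fold difference was reached by 313 pairs upward and 65 downward. Changes past 1.5-fold were thus a minority in both directions, and the extremes are the tail of a narrow distribution.

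The raised extremes began at a log2 ratio of 0.88, a fold of 1.83, and reached 1.55, a fold of 2.93. The lowered extremes began at -0.70, a fold of 1.63, and reached -1.54, a fold of 2.92. There was no gap at either boundary, since the last raised pair inside stood at 0.8753 and the first outside at 0.8752, and the corresponding lowered pairs stood at -0.7020 and -0.7018. Of the raised pairs, 446 were not listed in H4, and of the lowered pairs 365 were not listed in H4 88-1. Most extremes came in groups, with 722 raised pairs in 119 loci of 3 or more and 778 lowered pairs in 123 such loci. The largest raised locus held 24 pairs and the largest lowered locus 38.

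Raised and lowered pairs differed in size, the distance between anchor midpoints. The raised pairs had a median size of 231 kb (interquartile range 166 to 364 kb), the lowered pairs 634 kb (403 to 913 kb) and all merged pairs 340 kb. Pairs over 500 kb made up 12% of the raised, 64.6% of the lowered and 27.8% of all merged pairs. A trend with size ran through all merged pairs, whose median log2 ratio went from 0.26 at 107 to 141 kb to -0.25 at 938 to 2002 kb. The shortest pairs, up to 107 kb, broke the order for the extremes, with 138 raised and 49 lowered pairs in a single size bin. When each ratio was taken relative to pairs of like size, 5597 pairs were higher and 4454 lower at the same fold.

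**Figure D1:**
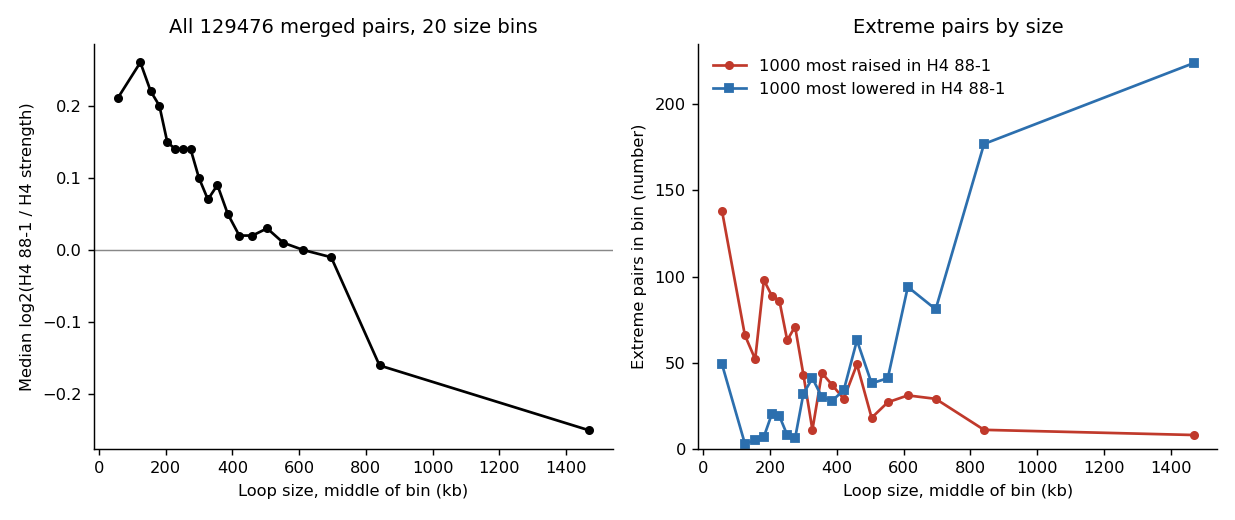
The left panel plots the median log2 ratio of H4 88-1 to H4 loop strength in 20 size bins of about equal number against loop size in kb, and the right panel the number of the 1000 most raised and 1000 most lowered pairs in each bin. The median falls from 0.26 to -0.25, and the largest bin holds 224 lowered and 8 raised pairs.

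Chromosome 7 stood out among the lowered pairs. It held 350 of them (35.0%) in 69 loci, beside 12% of all merged pairs, and only 37 raised pairs. Its merged pairs were also longer, with a median of 556 kb beside 321 kb elsewhere, and had a median log2 ratio of -0.11. The lowered pairs were not spread evenly along it. Between 80 and 100 Mb there were 101 lowered pairs in 20 loci and 0 raised pairs. Between 60 and 80 Mb 64 of only 511 merged pairs were lowered, in 7 loci, and 38 of the 64 belonged to the single locus beside GALNT17. The stretch from 40 to 60 Mb held 12 lowered pairs in 4 loci and 19 raised pairs. Outside chromosome 7 the lowered pairs still had a median size of 592 kb, with 55.7% over 500 kb. Chromosome 21 held 4.60% of the lowered and 1.74% of the merged pairs. Chromosome 22 lay at the other end, with 29 raised and 0 lowered pairs and a median log2 ratio of 0.34. With each ratio taken relative to its chromosome's median, 5666 pairs were higher and 4942 lower at 1.5-fold. The part of chromosome copy number in these differences was not tested.

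**Figure D2:**
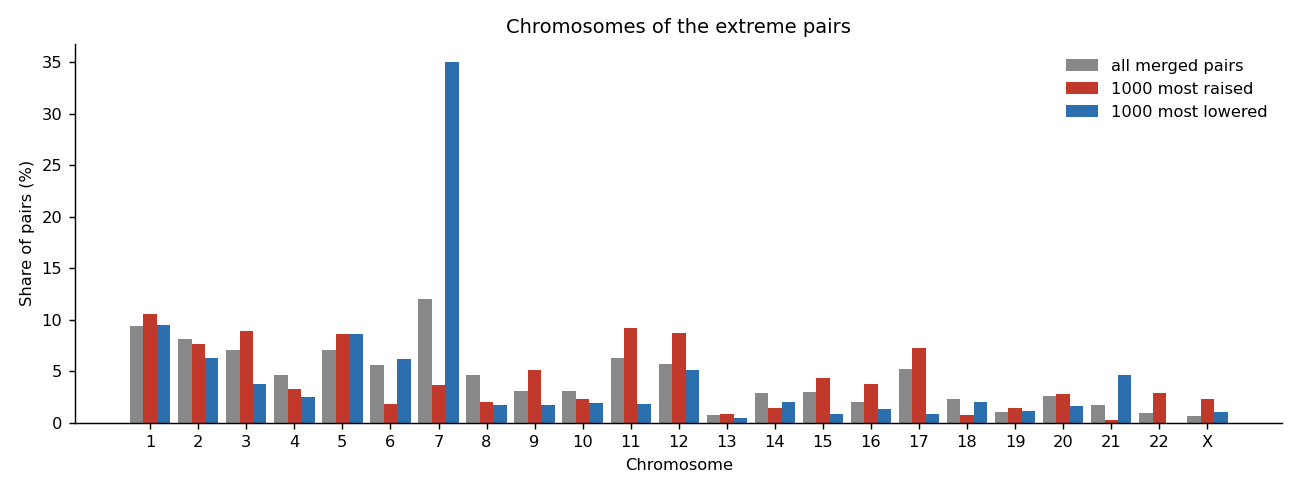
Bars give, for each chromosome, its percentage of all merged pairs, of the 1000 most raised and of the 1000 most lowered pairs. Chromosome 7 holds 35.0% of the lowered and 3.70% of the raised pairs against 12% of the merged pairs.

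Gene starts were more frequent at raised than at lowered pairs. An anchor with the start of a protein-coding transcript inside it or up to 3 kb away was found in 53.2% of the raised, 34.2% of the lowered and 44.9% of all merged pairs, and such a start lay at both anchors in 10.7%, 6.6% and 7.83%. These starts belonged to 244 genes in the raised and 153 genes in the lowered pairs. Of 4761 genes with a merged pair, 1526 (32.1%) had a pair at least 1.5-fold stronger in H4 88-1, 368 (7.73%) had one at least 1.5-fold stronger in H4, and 59 had both. With pairs listed in both lines only, 1171 of 4445 genes had a higher and 271 a lower pair. Genes with more pairs had more chances to be counted, and the median number of merged pairs was 8 for all genes, 12 for genes with a higher pair and 18 for genes with a lower pair.

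The most raised pair of all joined the region of the WNT7A start to a site beyond its 3′ end, so that the whole gene lay within the loop. WNT7A, listed as ENSG00000154764.6_8 on the minus strand of chr3:13857755-13921568, encodes a secreted WNT ligand with roles in limb patterning, in the nervous system and in brain vessels. The locus ran from chr3:13685095-13718724, between FBLN2 and WNT7A, to chr3:13912226-13936471 and held 19 extreme pairs. The strongest change was from 4.42 in H4 to 13.0 in H4 88-1, over 228 kb, a fold of 2.93. Over the 19 pairs, strength lay between 4.14 and 5.35 in H4, where only 8 were listed, and between 7.66 and 14.0 in H4 88-1. No value of one line fell within the range of the other, as the choice of the pairs by their ratio tends to give. Of 17 merged pairs at a WNT7A start, 11 were absent in H4 and so passed 1.5-fold through the merge. The other 6 were listed in both lines, and all 6 were at least 1.5-fold higher, with a median log2 ratio of 1.28.

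Another raised locus spanned CCND1. In the locus beside CCND1, which encodes cyclin D1, 20 pairs joined an intron of TPCN2, an endolysosomal ion channel, at chr11:68852958-68882016 to LTO1 at chr11:69469483-69503531. The strongest change, over 621 kb, was from 5.79 to 14.3, a fold of 2.48. This loop was not new in H4 88-1, since 19 of the 20 pairs were listed in H4, with up to 6.71. CCND1 lay within it, and 54 of the 138 other merged pairs inside it were at least 1.5-fold higher and 0 lower. The second anchor of that pair lay 14.7 kb from CCND1 and 24.1 kb from FGF19.

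PLXNA1, a receptor for semaphorins in axon guidance, was joined more strongly in H4 88-1 to an intron of CHCHD6, a subunit of the mitochondrial cristae complex. The 10 pairs between chr3:126466085-126475771 and chr3:126682337-126710796 were all absent from the H4 list and lay between 7.69 and 9.73 in H4 88-1. The largest change, over 231 kb, was at least 2.35-fold. The CHCHD6 end was not stronger with all of its partners. Its 14 other merged pairs had a median log2 ratio of -0.12, and the one that reached 702 kb to the right, beyond PLXNA1, went from 9.46 in H4 to 6.29 in H4 88-1.

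ITGA3, an integrin subunit that binds laminin, was joined over a short distance of 43.6 kb to a site at chr17:48096914-48110391, between DLX3 and ITGA3. Its locus held 11 pairs, whose other end at chr17:48139317-48177177 also covered the start of PDK2, a kinase of the pyruvate dehydrogenase complex. The most raised pair was absent in H4 and stood at 9.66 in H4 88-1, at least 2.33-fold higher. The anchor at chr17:48100454-48105455 was among those in most raised pairs, with 8, and 9 of its 9 merged pairs were past 1.5-fold, 3 of them absent in H4.

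TNS3, a tensin of focal adhesions, was joined to PKD1L1, a polycystin known for its role in left-right patterning. The 12 pairs between chr7:47610069-47629457 and chr7:47814281-47838344 were all absent in H4, and the largest change, over 209 kb, was at least 2.66-fold, to 11. The ends of this locus differed. The TNS3 end had 29 other merged pairs, of which 20 were absent in H4, and all 9 that were listed in both lines were at least 1.5-fold higher. The PKD1L1 end had 39 others listed in both lines, of which 4 were higher and 4 lower. One pair from the PKD1L1 end that reached 525 kb to the left went from 7.65 to 4.65. The locus stood on chromosome 7, where raised pairs were few.

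Further named raised loci lay at CACNA1E, HRH2 and FMNL3. CACNA1E, the pore-forming subunit of a neuronal calcium channel, had 17 raised pairs between chr1:181436952-181460462 in the gene and chr1:181895188-181919238, a stretch without a protein-coding gene on the way to ZNF648. The largest change was from 4.22 to 10.8 over 454 kb. HRH2, a histamine receptor, had 10, from chr5:174955152-174969633 beside SFXN1 to chr5:175112038-175131591, with a change from 4.16 to 10.1. FMNL3, a formin that elongates actin filaments, had 8 pairs from chr12:50025506-50044884 to chr12:50094490-50109119 that linked starts of FMNL3 and PRPF40B at one end to starts of FMNL3 and TMBIM6 at the other over 64.5 kb. The largest change was from absence in H4 to 10.5.

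The remaining named raised loci lay at AP3S1, COMMD9, POGZ and MYH13. AP3S1, a subunit of the AP-3 vesicle adaptor, had 9 pairs from chr5:115216005-115234950 to chr5:115396089-115410717, all absent in H4, with the largest at 10.6 in H4 88-1. COMMD9 had 8 pairs from chr11:35837338-35852276, beside TRIM44, to chr11:36275200-36294427 with a largest change from 4.24 to 10.2. Most pairs at COMMD9 did not change this way, since 10 of its 63 merged pairs were at least 1.5-fold higher. Of its 55 pairs listed in both lines 4 were higher, and their median log2 ratio was -0.02. POGZ, a chromatin protein with a transposase-derived domain, was joined to RIIAD1 by 9 pairs from chr1:151402675-151421677 to chr1:151699030-151718567, and the largest change was from 4.80 to 11.2. In a cluster of skeletal myosin heavy chain genes, 9 pairs ran from MYH13 at chr17:10219556-10243714 to a site between MYH2 and MYH3 at chr17:10509768-10524465, with a largest change from 4.17 to 9.91 over 286 kb.

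**Figure D3:**
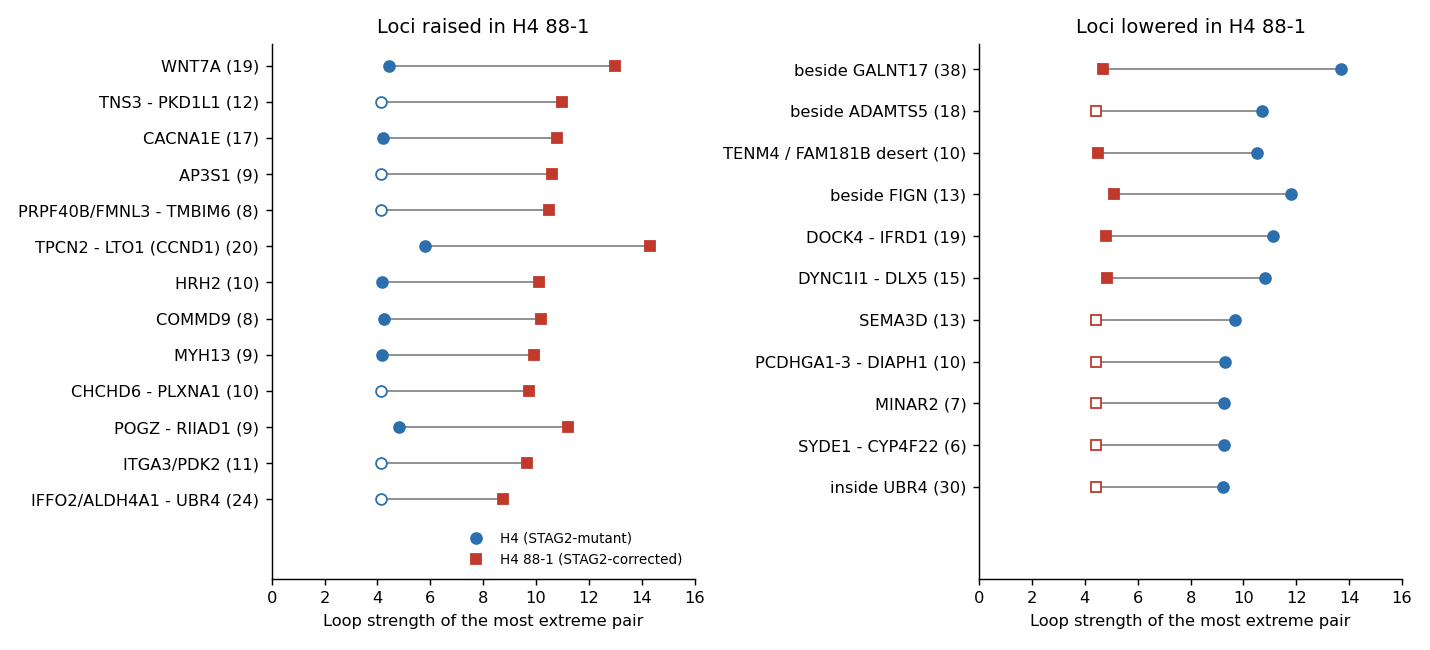
Points give the loop strength of the most extreme pair of each locus described in the text in H4 and in H4 88-1, and open symbols mark a pair absent from that list and plotted at its lowest strength. Numbers in brackets are the extreme pairs in the locus. The most raised pair went from 4.42 to 13.0 and the most lowered from 13.7 to 4.70.

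The most lowered locus was also the largest, with 38 pairs on chromosome 7. It joined chr7:70278502-70332364, 59.4 kb from AUTS2 at its most extreme pair, to chr7:71183715-71208436, between GALNT17 and CALN1. GALNT17, listed as ENSG00000185274.13_13 at chr7:70597130-71178585, encodes a Golgi enzyme of the family that starts O-linked glycosylation and lay whole inside the loop. The most extreme pair, over 881 kb, went from 13.7 in H4 to 4.70 in H4 88-1, a fold of 2.92. All 38 pairs were listed in H4, at 7.33 to 13.7, and 11 of them in H4 88-1, at 5.74 or less. No gene start lay at either end. The other merged pairs, 17 of the first end and 14 of the second, were all absent in H4 88-1. The anchor at chr7:71198466-71203473 took part in 11 extreme pairs, and 12 of its 13 merged pairs were past 1.5-fold, with 9 of the 13 absent in H4 88-1. Its partners formed adjoining maxima in H4, at 881 kb with 13.7 and at 905 kb with 12.6, and of these 4.70 and 5.74 were left in H4 88-1.

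Other named lowered loci of chromosome 7 lay at DLX5 and SEMA3D. DLX5, a homeobox transcription factor of craniofacial bone and forebrain interneurons, lies on the minus strand of chr7:96649708-96654262 and was joined to an intron of DYNC1I1, a dynein intermediate chain. The 15 pairs ran from chr7:95538181-95556432 to chr7:96644905-96678046, and the most extreme, over 1107 kb, went from 10.8 to 4.84. Of 33 merged pairs at DLX5, 12 were at least 1.5-fold lower and 0 higher, and of the 19 listed in both lines 6 were lower. SEMA3D, a secreted semaphorin, lay at the first end of 13 pairs from chr7:84643083-84657794 to chr7:85447183-85485730, of which the most extreme went from 9.69 to absence. The SEMA3D end also had a pair that reached 1106 kb to the other side and had 10.8 in H4 and 14.3 in H4 88-1, a fold under 1.5.

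A further lowered locus of chromosome 7 was also made of long pairs. DOCK4, an activator of RAC, was joined over 648 kb to the region of IFRD1, a transcriptional co-regulator, by 19 pairs from chr7:111388694-111413304 to chr7:112032648-112065758, with a largest change from 11.1 to 4.81. All 19 pairs were listed in both lines.

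Further named lowered loci lay on chromosomes 21, 11, 2 and 5. On chromosome 21, 18 pairs around ADAMTS5, a protease of cartilage proteoglycans, ran from chr21:28240875-28264763, beside ADAMTS1, to chr21:28922771-28946927, and the most extreme went from 10.7 to absence. On chromosome 11, 10 pairs from chr11:81346412-81365445 to chr11:81933738-81947841 lay between TENM4 and FAM181B, which were 2204 kb and 498 kb away from the nearer ends, and the largest change was from 10.5 to 4.48. On chromosome 2, 13 pairs spanned FIGN, a microtubule-severing enzyme, from chr2:164033996-164062659 to chr2:165277352-165296961, 61.9 kb from GRB14 at the most extreme pair. That pair, with 1234 kb the longest among the most extreme pairs of the loci described, went from 11.8 to 5.09. On chromosome 5, 7 pairs from chr5:128501133-128510781 to chr5:129091869-129111151, at MINAR2, spanned ADAMTS19 and were all absent in H4 88-1, with 7.28 to 9.27 in H4.

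A named lowered locus on chromosome 19 lay among genes. Its 6 pairs joined the start of SYDE1, a GTPase-activating protein, at chr19:15202265-15221526 to a site at chr19:15664052-15673993, 0.924 kb from CYP4F22, an enzyme of skin lipid synthesis, in the most extreme pair. The loop held 11 genes, among them NOTCH3, a receptor of vascular smooth muscle. The most extreme pair went from 9.25 to absence. The 35 other merged pairs inside the loop had a median log2 ratio of -0.14, and 2 of them were past 1.5-fold lower.

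**Figure D4:**
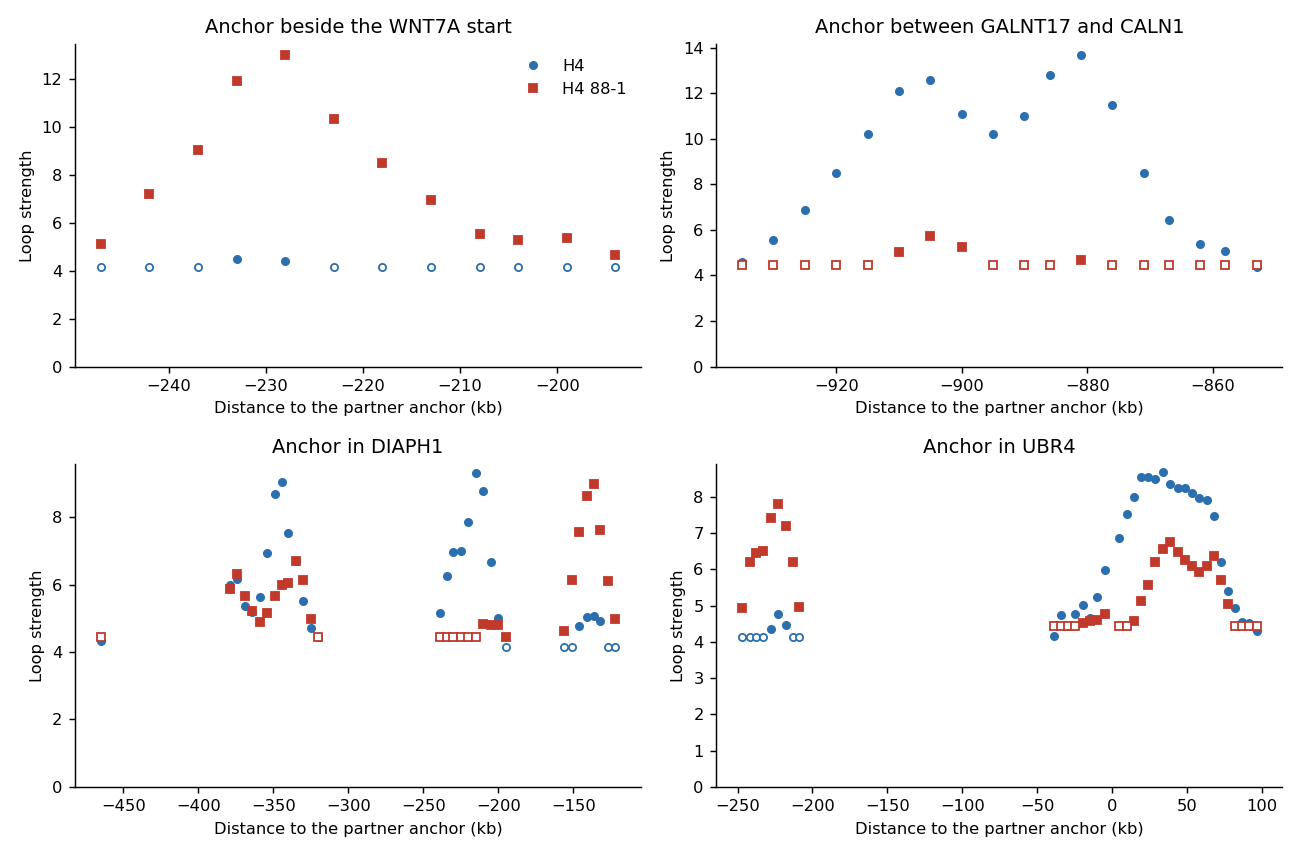
Each panel plots, for a single anchor, the loop strength of every listed pair in H4 and in H4 88-1 against the distance to the partner anchor in kb, negative to the left on the chromosome, with open symbols for pairs absent from a list. The WNT7A anchor peaks at 13.0 in H4 88-1 and at 4.50 in H4, the anchor between GALNT17 and CALN1 peaks at 13.7 in H4 and 5.74 in H4 88-1, and the anchors in DIAPH1 and UBR4, shown because they hold pairs of both directions, switch between partners.

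At the gamma protocadherins, the contacts of a single end moved along the gene cluster. These genes encode cell-surface adhesion molecules whose many alternative promoters, arranged in a row, give neurons individual identities. The lowered locus held 10 pairs between chr5:140698824-140727345, with the starts of PCDHGA1, PCDHGA2, PCDHGA3, PCDHGB1 and TAF7, and chr5:140932447-140946764 in DIAPH1, a formin. The most extreme pair, over 215 kb, went from 9.32 in H4 to absence in H4 88-1. The pairs of this DIAPH1 end with the first genes of the row, PCDHGA1 to PCDHGB2, had negative log2 ratios throughout, with a median of -0.91 over 6 pairs at PCDHGA2 and -0.17 for the 1 pair at PCDHGB2. Its pairs with later genes, PCDHGA9 to PCDHGA12, were positive throughout. At PCDHGB7 the median was 0.80 over 6 pairs, which had 5.05 to 6.80 in H4 and 8.64 to 10.9 in H4 88-1. The genes between PCDHGB2 and PCDHGA9, and PCDHGC3 nearer to DIAPH1, had no merged pair with this end. Within the gamma cluster, the pairs that were stronger in H4 thus spanned 205 to 239 kb and those stronger in H4 88-1 127 to 161 kb. Farther out, beyond the gamma cluster, the DIAPH1 anchor also had pairs that were stronger in H4, with 9.05 in H4 and 5.99 in H4 88-1 at a distance of -344 kb, negative to the left, and with 8.69 and 5.68 at -349 kb. Neighbouring genes share anchors in these counts. The genes are similar in sequence, the authors kept uniquely mapped reads only, and the part of this in the values was not tested.

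Pairs at UBR4 changed in opposite directions according to the partner. UBR4, listed as ENSG00000127481.15_11 on the minus strand of chr1:19401004-19536760, encodes a large ubiquitin ligase that recognises the ends of proteins marked for degradation. The lowered locus, chr1:19451745-19490707 to chr1:19461610-19514960, lay wholly inside the gene and held 30 pairs, and its most extreme pair, between adjacent anchors 4.96 kb apart, went from 9.23 to absence. Of 173 merged pairs inside UBR4, 54 were at least 1.5-fold lower and 0 higher, and their median went from 7.71 in H4 to 5.45 in H4 88-1. The raised locus with most pairs, 24, ran from chr1:19214186-19248099, with starts of ALDH4A1, an enzyme of proline breakdown, of IFFO2 and of RP13-279N23.2, to UBR4 at chr1:19412953-19451744. Of 84 merged pairs from that end to UBR4, 70 were at least 1.5-fold higher and 0 lower, with a median strength of 4.73 in H4 and 8.28 in H4 88-1. The median size was 38.7 kb inside the gene and 196 kb for the pairs that reached it from outside. A further 26 merged pairs had both ends in the stretch from the IFFO2 and ALDH4A1 end up to UBR4, without touching UBR4. Their median log2 ratio was 0.65, with 14 at least 1.5-fold higher and 0 lower. The rise was thus not confined to pairs that reached UBR4.

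**Figure D5:**
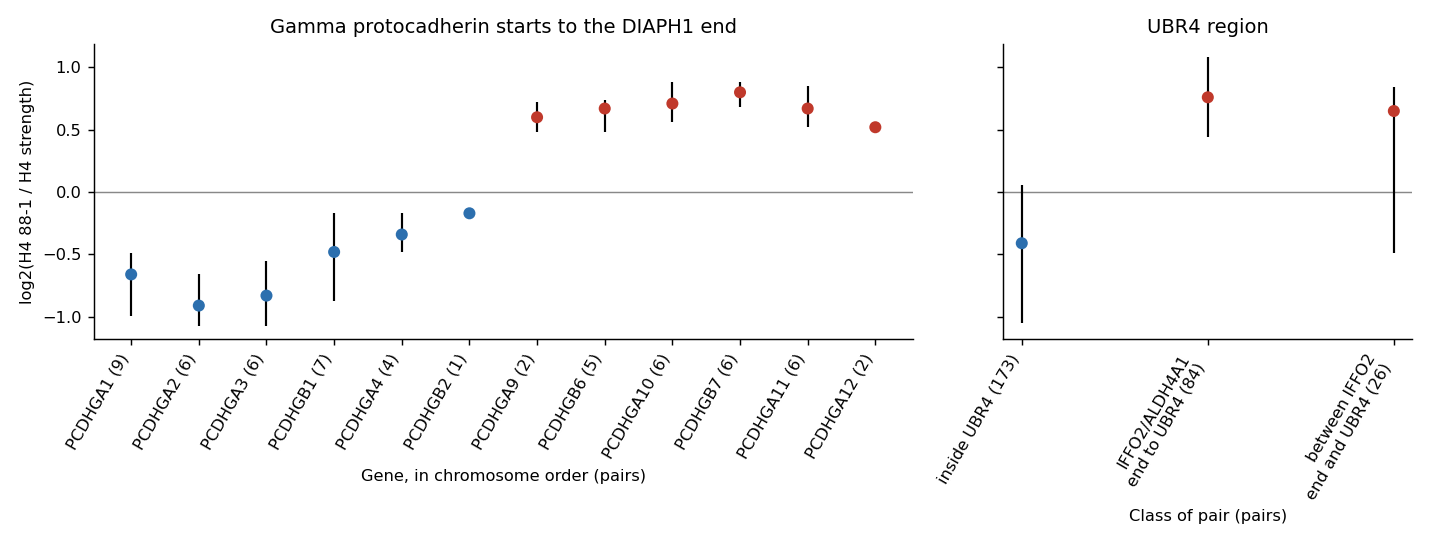
Points give the median log2 ratio of H4 88-1 to H4 loop strength and lines the range over pairs, whose number is in brackets. In the left panel gamma protocadherin genes stand in chromosome order, paired with the DIAPH1 end. They pass from a median of -0.91 at PCDHGA2 to 0.80 at PCDHGB7. In the right panel pairs inside UBR4 have a median of -0.41. Pairs from the IFFO2 and ALDH4A1 end to UBR4 have 0.76, and pairs between that end and UBR4 0.65.

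Anchors in raised extremes numbered 1134 and those in lowered extremes 1056, of the 46368 anchors of all merged pairs. Sets of this size share few anchors even if unrelated, so a small overlap is not a result about them. The anchors in both sets numbered 12. They included an anchor in DIAPH1, anchors at FOXC2, a forkhead factor of vessels and kidney, and at MLPH, a melanosome transport protein, an exon of PARN, a poly(A) exonuclease, and 5 anchors in PKD1L1. Of the anchors in most extreme pairs of a single direction, those in UBR4 were found on both lists, at chr1:19417966-19422481 with 7 raised pairs and at chr1:19466364-19471305 with 9 lowered pairs. The anchor of ASB4 at chr7:95105484-95110420 had 10 lowered pairs, and 14 of its 19 merged pairs were past 1.5-fold. One of its partners was the COL1A2 region.

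Among genes grouped by role, the share with a higher pair was read beside the 32.1% of all 4761 genes. The share with a lower pair was read beside their 7.73%. With scaling, all genes moved to 1021 higher and 589 lower after the overall median and 906 and 696 after the chromosome median. They moved to 790 and 735 after the like-size median and 919 and 656 with mean quantiles. Scaled counts of a list are to be read beside these. The median number of merged pairs per gene was 9 to 28 in these lists and 8 for all genes. Genes of the lists thus had more chances to be counted. In the list of TGF-beta, activin and BMP genes, 12 of 25 genes with a merged pair had a higher pair and 1 a lower pair, and under the 4 scalings tried 10 to 11 were higher and 3 to 6 lower. The most raised were SMAD3, an intracellular effector, absent in H4 and at 7.83 in H4 88-1 over 121 kb, and NOG, a BMP antagonist, absent in H4 and at 7.63. TGFB2, a ligand, was the gene with both, with 6 pairs higher and 5 lower of 104. Of its 85 pairs listed in both lines, 3 were higher and 1 lower.

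Of receptor tyrosine kinases and their ligands, 10 of 23 genes had a higher and 3 a lower pair. Relative to pairs of like size this became 5 and 6, where all genes had 790 and 735. PDGFRB, a receptor of pericytes and mesenchymal cells, had 17 of 19 pairs past 1.5-fold, with 9 of the 19 absent in H4, with the largest change from 4.66 to 10.0 over 82.2 kb. IGF2, a fetal growth factor, had 30 of 45, with the largest from 7.20 to 15.1 over 110 kb. BDNF, a neurotrophin, had 3 lower and 5 higher of 79, with the most lowered from 8.17 to 4.70 over 1005 kb. Of the 63 BDNF pairs listed in both lines, 3 were lower and 1 higher. FGF1 had 2 lower of 21, the most lowered from 6.99 to absence.

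Of WNT and hedgehog genes, 8 of 23 had a higher and 2 a lower pair. WNT7A led them, and WNT4, a ligand of kidney and gonad development, was next with 10 of 11 pairs past 1.5-fold, 5 of the 11 being absent in H4, and a largest change from absence to 7.74. SFRP4, a secreted WNT antagonist on chromosome 7, had 7 lower of 38, with the most lowered from 7.84 to absence. Of the 26 SFRP4 pairs listed in both lines, 2 were lower. GLI1, a hedgehog effector, had 1 lower of 18. Under the 4 scalings, 5 to 7 genes of this list were higher and 4 to 6 lower.

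Of 25 axon guidance genes, 5 had a higher and 4 a lower pair, shares of 20% and 16%, and the balance turned with each scaling other than the subtraction of the overall median, which made it even. On the lowered side were the semaphorins SEMA3C, with 17 of 73 pairs and a most lowered pair from 12.9 to 6.97, and SEMA3A, with 8 of 13 and a most lowered pair from 10.3 to 6.08 whose other end lay in SEMA3D. Both lie on chromosome 7. Not all semaphorins of the list went this way, since SEMA3E had 8 of 14 pairs higher and 0 lower. SEMA3D had 2 lower and 0 higher of 141. On the raised side were the semaphorin receptors PLXNA1, with 9 of 9 pairs, all absent in H4, and PLXNC1, with 10 of 16 and a largest change from 5.57 to 10.2.

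Extracellular matrix genes had a higher pair in 11 of 34 cases (32.4%) and a lower pair in 4 (11.8%). COL5A1, a chain of fibrillar collagen, had 13 of 13 pairs past 1.5-fold, 9 of them absent in H4, with the largest from 4.34 to 10.1 over 190 kb. CCN1, a matricellular protein, had 19 of 19, 16 of them absent in H4, with the largest from absence to 8.73. COL1A2, the second chain of type I collagen, went the other way on chromosome 7 with 4 lower of 52 and a most lowered pair, to ASB4 at 1048 kb, from 8.61 to 4.79, and COL12A1 had 2 lower of 63. Under the 4 scalings, 8 to 9 genes of the list were higher and 6 to 7 lower.

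Developmental transcription factors had many pairs each, with a median of 28 per gene beside 8 for all genes. Of 63 with a pair, 27 had a higher and 13 a lower pair, and 5 had both, namely TFAP2A, RUNX1, SNAI2, FOXC2 and FOXF1, which were named after their values were seen. GATA4, a factor of heart and endoderm, went from 5.12 to 10.4 in its most raised pair, and FOXL1, a forkhead factor of gut mesenchyme, from 4.25 to 8.26. TFAP2A, a neural crest factor, had 15 lower and 1 higher of 45 pairs, with the most lowered from 7.87 to absence over 883 kb. Of its 18 pairs listed in both lines, 6 were lower and 0 higher. The most lowered pair of DLX5 was more lowered still. The other scalings gave 19 to 21 higher and 14 to 18 lower genes. The median of the genes' median log2 ratios was 0.08 in this list and 0.13 over all genes.

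In the list of cell cycle genes and glioblastoma drivers, 8 of 12 genes had a higher and 2 a lower pair, and under other scalings 3 to 5 were higher. The median number of merged pairs per gene was 22 in this list beside 8 for all genes, which raises such shares. CCND1 had 24 of 72 pairs past 1.5-fold, with the largest from 4.31 to 8.82 over 377 kb to an intron of MYEOV. Of its 63 pairs listed in both lines, 16 were higher. CCND2, another D-type cyclin, had 15 of 23 pairs past 1.5-fold, with the largest from absence to 7.64. Of its 16 pairs listed in both lines, 8 were higher. PIK3R1, a regulatory subunit of PI3-kinase, had 7 lower of 25, with the most lowered from 9.97 to 5.16 over 1002 kb. Of its 13 pairs listed in both lines, 3 were lower, and their median log2 ratio was 0.03. MYC had 1 lower and 4 higher of 31, the lower from 7.42 to absence over 1804 kb. Of the 24 MYC pairs listed in both lines, 1 was higher and 0 lower.

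In the list of neural and glial adhesion genes, 3 of 9 had a higher and 2 a lower pair. TENM2, a teneurin of synapses, had 8 of 12 pairs past 1.5-fold with the largest from absence to 8.37. Of its 6 pairs listed in both lines, 2 were higher. NFASC had 1 of 13 past 1.5-fold, and NCAM2 and CDH6 had 1 lower pair each, from 7.5 and 6.71 in H4 to absence. After scaling the balance of this list was 1 to 2 higher and 1 to 3 lower. Of cohesin and loop extrusion genes, 5 had a merged pair. CTCFL, a testis paralog of CTCF, had 8 of 14 pairs past 1.5-fold, with the largest from 4.59 to 9.02. Of its 12 pairs listed in both lines, 6 were higher. SMC3, a core cohesin subunit, had 2 of 61, and NIPBL, the cohesin loader, had 1 lower pair of 5, from 7.05 to absence. STAG1 had 23 pairs, and none passed 1.5-fold, with log2 ratios from -0.25 to 0.28. The balance of this list also turned, to 1 higher and 2 lower, relative to pairs of like size.

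None of 3 genes that the study discusses with loops had a pair among the extremes, which began upward at a log2 ratio of 0.88. The study called changed loops by a Z-score cutoff, a different rule, so this does not bear on its calls. SH3RF3, a scaffold with SH3 domains, had 1 of 26 merged pairs past 1.5-fold, from absence to 6.52 over 192 kb. EDN1, the vasoconstrictor endothelin, had 1 of 50. The homeobox gene PKNOX2 had 7 of 7, all absent in H4, with a median log2 ratio of 0.72. The largest PKNOX2 ratio, 0.83, is a lower bound like the others.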

How the data were processed

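Hi-C libraries of H4 and H4 88-1 were made by the authors with a restriction-based kit. Per the study's methods, reads were trimmed to 36 bp, aligned to hg19 with bowtie, kept when uniquely mapped, freed of duplicates and assigned to pairs of 5 kb anchors. The authors corrected biases with HiCorr and enhanced the maps with LoopEnhance of DeepLoop, pooled 2 replicates per line and deposited the 300000 strongest pairs with a signal, the loop strength, which has no unit. Enhancement smooths neighbouring pairs, so that the pairs of a locus are not independent. No read counts are in the lists, and depth per pair is unknown.

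From these, the 100000 strongest pairs of each line were merged, absent pairs set to the lowest strength of that list, and ranked by log2 ratio. The members and gene lists were chosen with earlier results of these data known. In each direction the text names the 12 loci of at least 3 pairs with the most extreme pair, the 3 loci with most pairs, the single most extreme pair, the 5 anchors in most extreme pairs, 2 genes from each of the gene lists, and PKNOX2, EDN1 and SH3RF3. One lowered locus that this rule names is not reported here. Genes are protein-coding genes of GENCODE release 44 on GRCh37 with a transcript start within 3 kb of an anchor. The CTCF core consensus was searched in all anchors on both strands. The procedure was tested on simulated lists with planted changes, made only of pairs held by both lists and with independent noise. That test does not cover absent pairs or smoothed neighbours. Alternatives changed the number merged, scaling, joining, fold and gene distance. The lists of the other cell line pair were used only to count distinct pairs, and the 12 RNA-seq samples were not analysed here. Python 3.11.15 with numpy 2.4.6, pandas 2.3.3 and matplotlib 3.10.9 was used.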

Additional observations from a re-analysis of the deposited data

How the results depend on the processing

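No paired analysis was possible because the replicates of each line were pooled before deposit. Under 4 scalings, the 100 recomputed log2 ratios of the 25 named loci shifted by at most 0.25, and the smallest was 0.82 in size. These loci were chosen for large ratios, the smallest 1.05 in size, so that shifts of this size could not change a sign. Merging other numbers of pairs or only pairs listed in both cannot change the ratio of a pair and tests nothing here.

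The 11311 higher and 2792 lower pairs became 4781 higher with 50000 pairs merged, 6660 and 1780 with pairs listed in both only, 6307 and 5113 after subtracting the overall median, 5666 and 4942 after the chromosome median, 5597 and 4454 after the like-size median, 5633 and 5705 with mean quantiles, 26823 and 13208 at a fold of 1.3, and 313 and 65 at a fold of 2. The 1526 and 368 genes became 801 higher with 50000 pairs merged, 589 lower after the overall median, 906 and 696 after the chromosome median, 790 and 735 after the like-size median, 919 and 656 with mean quantiles, 2506 and 1255 at a fold of 1.3, and 83 and 10 at a fold of 2. The 316 raised and 283 lowered loci became 165 and 155 with 500 extreme pairs and 560 and 489 with 2000.

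With pairs listed in both lists only, the most extreme pair was still among the extremes in 7 of 13 named raised and 5 of 12 named lowered loci, since the others were absent from a list. Merging 200000 pairs left the numbers of higher and lower pairs at 11311 and 2792. This was fixed in advance, since an added pair is at most 6.21 in H4 88-1 and 5.83 in H4. Over the lowest strengths such values cannot exceed ratios of 1.5 and 1.31, so this setting tests nothing here. The lists end at 4.14 and 4.44, which limits every fold.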
